A study of Mus musculus with 2 samples.

Results

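The collagen genes of a mouse tumour were followed through the cell classes and tumour states of 2 single-cell RNA sequencing libraries. Members were the genes whose symbol is Col, a type number, the letter a and a chain number, and that had at least 20 unique molecular identifiers (UMIs, tags that mark single captured RNA molecules) over both libraries. Of 32285 genes in the feature list, 44 carried such a symbol and 37 reached the minimum. The 7 that did not were Col9a2, Col9a1, Col26a1, Col4a3, Col6a4, Col2a1 and Col13a1, with 0, 2, 6, 7, 10, 15 and 17 UMIs. Just inside the minimum were Col25a1 with 23 UMIs and Col19a1 with 32. By the type of structure they build, the members were 10 fibrillar, 5 basement membrane, 5 beaded filament, 1 anchoring fibril, 3 hexagonal network, 7 fibril-associated (FACIT), 3 transmembrane, 2 multiplexin and 1 other collagen.

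The libraries came from subcutaneous tumours of mice kept on a control diet or on a diet free of serine and glycine, with 1 library for each diet. The labels name the samples CT_scRNA and SG_scRNA and give the tissue as tumour, and CT and SG were taken as the control and the -SG diet that the design text of the series names. Paired values below give the control library first. The tumour line, the mouse strain, sex and age, the length of the diet and the number of animals behind a library are not stated in the sources used here. With 1 library a diet there is no replicate, so no difference between the diets was tested, and the intervals below cover counting error only. The control library held 14774 cell barcodes and 173785388 UMIs, with 20662 barcodes and 173592046 UMIs for the -SG diet. After filters and removal of doublets 13588 and 19106 cells remained, with medians of 11310.5 and 7305 UMIs. The libraries shared 87 barcodes.

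Collagens are secreted proteins of 3 chains wound around each other, and the winding needs a glycine at 1 residue in every 3. Fibrillar collagens such as types I, III and V form the cables of connective tissue and are made mainly by fibroblasts. Type IV collagen forms the sheet of basement membranes under endothelial and epithelial cells, type VI forms beaded filaments around cells, and type VIII forms hexagonal networks known from vessel walls and the cornea. Serine and glycine are amino acids that cells convert into each other, can make or can take up.

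The repeat itself is shown for the 6 members on which the results turn, since it is the feature that ties these genes to the amino acids removed from the diet. Each line gives the first 90 bases (30 codons) of the longest uninterrupted run of the gene's coding sequence with a glycine codon at 1 place in every 3, 5′ to 3′, from the GENCODE M21 annotation of GRCm38. Capitals mark glycine codons, and the exons are joined.
Col1a2: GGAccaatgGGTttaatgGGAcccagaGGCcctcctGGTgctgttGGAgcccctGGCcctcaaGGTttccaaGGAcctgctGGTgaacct
Col8a1: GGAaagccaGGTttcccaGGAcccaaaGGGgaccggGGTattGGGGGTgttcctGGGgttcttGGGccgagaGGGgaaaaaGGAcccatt
Col4a5: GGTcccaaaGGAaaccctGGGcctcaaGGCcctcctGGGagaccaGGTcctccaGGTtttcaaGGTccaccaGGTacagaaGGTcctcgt
Col1a1: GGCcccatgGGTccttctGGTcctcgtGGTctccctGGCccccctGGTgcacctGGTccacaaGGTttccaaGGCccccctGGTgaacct
Col3a1: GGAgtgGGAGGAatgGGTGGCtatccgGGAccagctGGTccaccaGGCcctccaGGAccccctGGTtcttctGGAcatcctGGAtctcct
Col4a1: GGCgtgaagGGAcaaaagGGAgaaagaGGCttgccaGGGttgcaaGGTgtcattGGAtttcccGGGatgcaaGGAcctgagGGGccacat

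The Col1a2 stretch lies in exons 6 to 8 of 52 (chr6:4512406-4515516, plus strand) and opens a run of 339 glycine triplets. Those of Col1a1 (chr11:94939451-94939939, plus strand, exons 6 to 8 of 51) and Col3a1 (chr1:45323762-45325413, plus strand, exons 5 to 6 of 51) open runs of 338 and 344. The network-forming chains have shorter runs. The Col8a1 stretch lies within exon 4 of 4 (chr16:57628003-57628092, minus strand) in a run of 61. The Col4a5 stretch spans exons 42 to 45 of 54 (chrX:141656825-141666867, plus strand) in a run of 42, and the Col4a1 stretch spans exons 2 to 3 of 52 (chr8:11247024-11267614, minus strand) in a run of 40. Glycine codons made up 27.8% of the Col1a2 coding sequence, 25.7% of Col8a1 and 28.5% of Col4a5. Over the members the share ran from 9.17% in Col12a1, a long chain of mostly non-collagenous modules, to 31.2% in Col9a3, and 28 of the 37 members were among the highest 1% of 21370 genes by this share.

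Cells were classed by marker genes, none of them a collagen. Tumour cells were gated on Hmga2, a DNA-binding protein of embryos and many cancers, and Rhox5, a homeobox gene. This gave 10225 control cells (75.3%) and 12776 serine/glycine-free cells (66.9%). The fibroblast gate held 63 and 76 cells, the endothelial gate 36 and 48, the mural gate (pericytes and smooth muscle) 8 and 8, the monocyte/macrophage gate 1160 and 1409 and the T-cell gate 492 and 1156. Levels of marker genes were then compared between the classes. Hmga2 and the fibroblast markers are themselves gate genes, and cells that passed the gates of several lineages were set apart. The differences in these genes between tumour-gated and fibroblast-gated cells thus follow in part from the gates and do not check the labels. The gates also limit the Pecam1, Cdh5, Lum and Mfap5 values below. All levels are given as CPM, the UMIs of a gene for every 1e6 UMIs of its class. Hmga2 stood at 2090 and 2047 CPM in tumour-gated cells and at 223 and 117 in fibroblast-gated cells. Pecam1 and Cdh5, which define endothelium, were at 0 in fibroblast-gated cells, and Lum and Mfap5, which define fibroblasts, were at 0 in endothelial-gated cells. The 12 fibroblast markers summed to 12716 and 10326 CPM in fibroblasts and to 53.9 and 113 in tumour cells. The 6 epithelial markers summed to 1.81 and 0.452 CPM in tumour cells. T cells, which are not known as collagen producers, served as a guide to the level of free RNA. They were shallower than tumour cells, so an equal amount of free RNA per cell gives a higher CPM in them.

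Tumour cells held most of the collagen RNA, and fibroblasts held the highest density of it. The 37 members together reached 1026 CPM in control tumour cells and 1098 CPM in serine/glycine-free tumour cells, against 57.8 and 97.2 CPM in T cells. In fibroblasts they reached 34473 and 41902 CPM, that is 3.45% and 4.19% of all UMIs of the class. Mural cells stood at 20818 and 12076 CPM, from 8 cells each, and endothelial cells at 6519 and 5150. Monocytes and macrophages stood at 79.1 and 111 CPM, near the T-cell level. Because tumour cells were so many, they carried 80.5% and 75.8% of all collagen UMIs. Fibroblasts carried 10.5% and 10.7%, from 0.464% and 0.398% of the cells. Cells that passed the gates of more than 1 lineage and cells that passed none held 113 and 323, and 715 and 2057, cells and are left out of the comparisons.

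**Figure D1:**
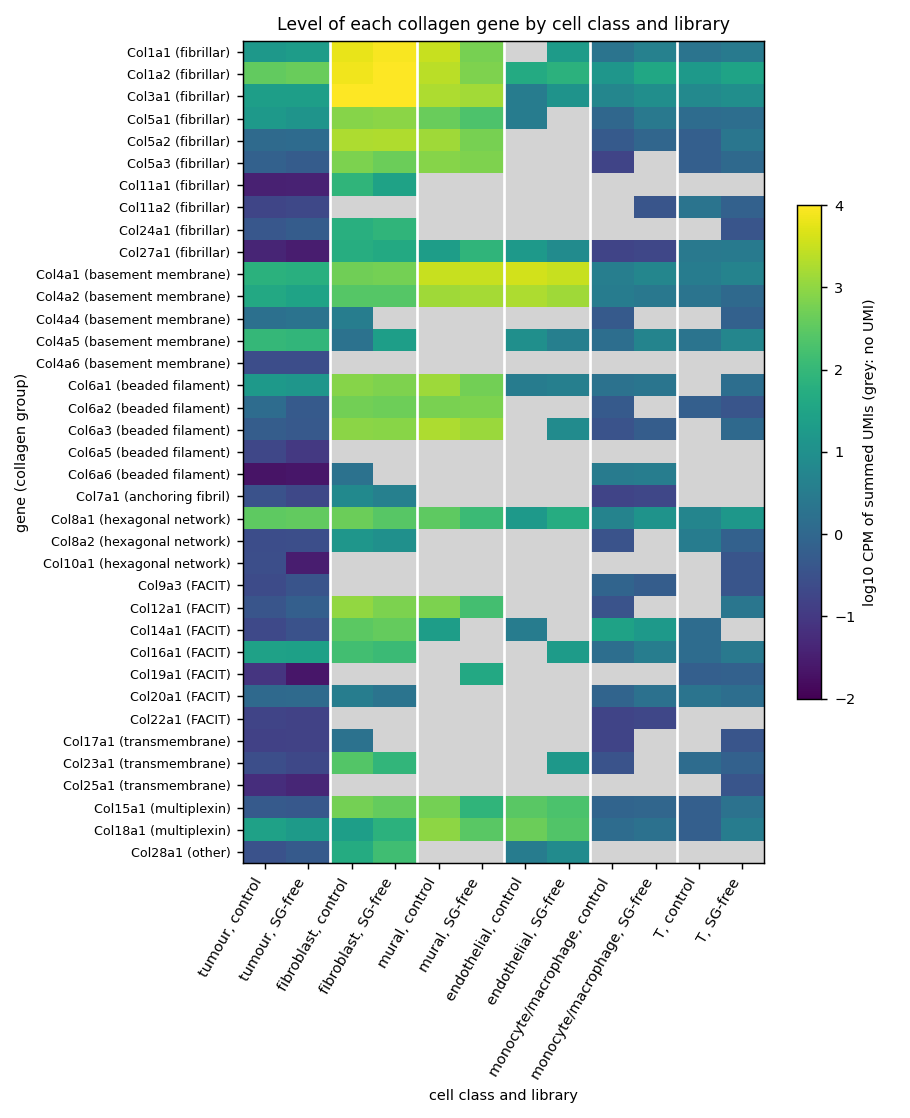
Levels of the 37 members in 6 marker-gated classes, control (left) and serine/glycine-free (right) library of each class, as log10 of CPM by colour; grey marks no UMI. Brighter colour is a higher level. Fibroblasts are bright in Col1a1, Col1a2, Col3a1, the type V chains and Col6a1 to Col6a3. Endothelial and mural cells are bright in Col4a1, Col4a2, Col15a1 and Col18a1, and tumour cells in Col1a2, Col8a1, Col4a5 and Col4a1.

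The collagen RNA of tumour cells was concentrated on a few chains. Col1a2, which encodes a chain of type I collagen, stood at 360 CPM on the control diet (51855 UMIs) and 423 CPM on the serine/glycine-free diet (56137 UMIs). Col8a1, a chain of the hexagonal network collagen type VIII, stood at 317 and 367 CPM (45676 and 48654 UMIs). These were present in most tumour cells: Col1a2 gave a UMI in 92.7% and 89.1% of them and Col8a1 in 86.1% and 80.7%. Thinned to 1000 UMIs per cell, the shares were 29.8% and 34.5% for Col1a2, against 1.46% and 2.65% of T cells, and 24.1% and 26.5% for Col8a1, against 0.418% and 0.98% of T cells. Before thinning, the T cells had median depths of 2409 and 1838.5 UMIs and the tumour cells 13036 and 9255. The shares for both genes were thus higher in the control library as measured and lower once depth was equal.

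Basement membrane chains came next. Col4a5, whose product normally assembles with the products of Col4a3 and Col4a4 or of Col4a6, stood at 101 CPM (95% counting interval 99.6 to 103) and 91.2 CPM (89.6 to 92.8) in tumour cells. Col4a1 stood at 68.0 and 61.0 CPM and Col4a2, its usual partner, at 41.2 and 30.01. The possible partners of Col4a5 were scarce, with Col4a4 at 1.61 and 1.96 CPM, Col4a6 at 0.257 and 0.264, and Col4a3 under the minimum with 7 UMIs in all. Col16a1, a fibril-associated chain, stood at 26.9 and 25.9 CPM. Col18a1, the source of endostatin, stood at 26.9 and 18.3, Col3a1 at 23.7 and 23.6, Col5a1 at 17.9 and 12.8, Col6a1 at 16.6 and 14.3 and Col1a1 at 15.7 and 20.5. Apart from Col4a4, every other member stood at or below 1.35 CPM in tumour cells.

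In order of level, Col1a2 and Col8a1 were followed by Col4a5, Col4a1 and Col4a2 in both libraries, with no overlap of the counting intervals between these neighbours. UMIs taken at the 3′ end of an RNA do not grow with its length, but genes differ in how well they are captured, so this is an order of UMIs. Col1a2 and Col8a1 made up 35.1% and 30.9% of the collagen UMIs of control tumour cells, and 38.5% and 33.4% of those on the other diet. The first 3 chains together made up 75.8% and 80.3%.

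The T-cell level shows which of the low tumour-cell values stand above free RNA. Of 33 members with at least 20 UMIs over both classes, 17 were at least 2-fold higher in tumour cells than in T cells in both libraries and 4 at least 2-fold lower, where over all genes tested 25.4% were higher and 18.7% lower. All 11 members at or above 10 CPM in tumour cells were among the higher ones. T cells held Col1a2 at 17.3 and 30.2 CPM, Col8a1 at 5.31 and 15.3 and Col3a1 at 6.64 and 9.31. Col3a1 thus had the smallest margin of the 11, with log2 ratios of 1.84 and 1.34. Col15a1 stood at 0.499 and 0.437 CPM in tumour cells and 0.664 and 1.86 in T cells, and Col20a1 at 1.15 and 1.18, against 1.99 and 1.49. Both were below the T-cell level in both libraries, but on 1 and 5, and 3 and 4, T-cell UMIs. The intervals of the Col20a1 ratios include 0 in both libraries, as does that of Col15a1 in the control. Tumour cells held 84.3% and 83.9% of the Col20a1 UMIs and 10.3% and 13.1% of those of Col15a1. Whether tumour cells make these 2 chains is not shown by this comparison.

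Fibroblasts made the broad set. Of 34 members tested against tumour cells, 22 were at least 2-fold higher in fibroblasts in both libraries and 7 at least 2-fold lower, where 13.2% of all genes were higher and 28.9% lower. Of the 7 lower ones Col4a5 alone had a tumour level above what 3 counts in the fibroblast class would give. Col3a1 led at 11439 and 14583 CPM, followed by Col1a2 at 7398 and 10388 and Col1a1 at 6243 and 8520. Col1a2 was found in 63 of 63 and 76 of 76 fibroblasts. Col3a1 alone made up 33.2% and 34.8% of the class's collagen UMIs.

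The other fibroblast collagens all stood below these 3 chains. Among the fibril partners, Col5a2 stood at 1845 and 1894 CPM, Col5a1 at 795 and 898, and Col12a1, which coats fibrils, at 1059 and 640. The 3 chains of type VI collagen stood close together: Col6a1 at 814 and 698 CPM, Col6a2 at 525 and 481 and Col6a3 at 927 and 865. Col15a1, a basement membrane zone collagen, stood at 546 and 374, Col14a1, another FACIT chain, at 314 and 376, and Col4a1 at 489 and 563. Col8a1, second in tumour cells, stood at 455 and 282 CPM in fibroblasts and gave a UMI in 57.1% and 50.0% of them. Its density was thus near that of tumour cells, and its ratio between the classes passed 2-fold in neither library. Col4a5 gave 1 UMI in the control fibroblasts and 11 in the serine/glycine-free ones.

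**Figure D2:**
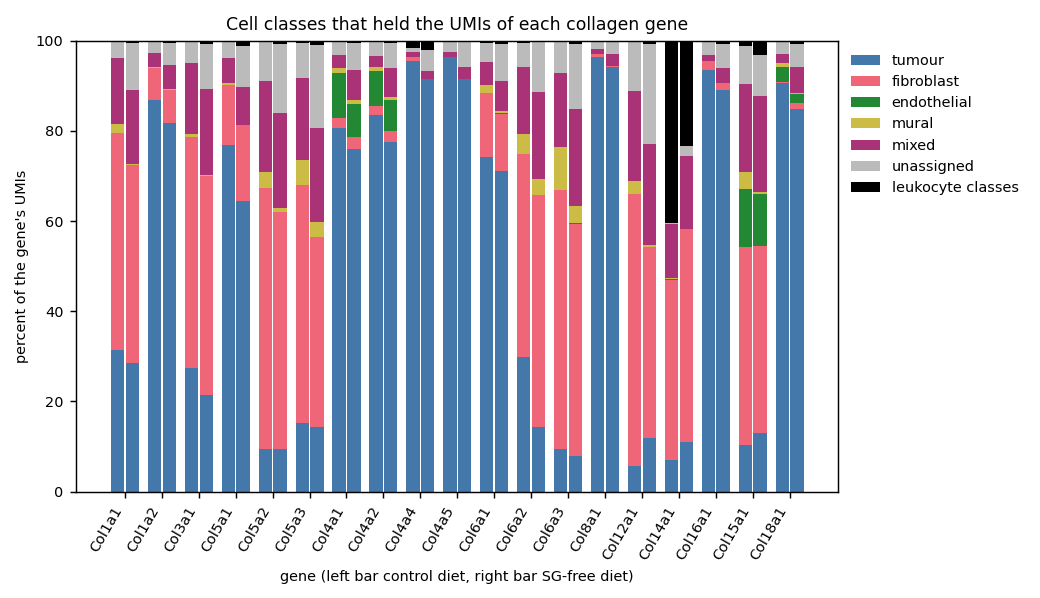
Share of each gene's UMIs by the class of the cell that held them, for the 19 members with at least 500 UMIs, in percent; the left bar of each pair is the control and the right bar the serine/glycine-free library. The bars of Col8a1 and Col4a5 are over 90% tumour cells, whereas those of Col3a1 and Col1a1 are mostly fibroblasts and cells passing more than 1 gate.

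Where the RNA of a gene sat therefore differed by gene. Tumour cells held 96.4% and 94.1% of the Col8a1 UMIs, 96.4% and 91.4% of Col4a5 and 87.0% and 81.7% of Col1a2. They held 31.3% and 28.6% of the UMIs of Col1a1, its partner in type I collagen, of which fibroblasts held 48.3% and 43.8%. For Col3a1 the fibroblast share was 51.3% and 48.7%. Col12a1 was 60.3% and 42.3% fibroblast, and 5.59% and 11.9% tumour. Thus 2 chains of the same protein, Col1a1 and Col1a2, had the largest share of their RNA in different classes. The tumour-cell UMIs of Col1a1 and Col3a1 were not spread evenly. The 1% of tumour cells with most Col1a1 UMIs, 102 and 128 cells, held 18.2% and 20.9% of them. For Col3a1 the top 1% held 19.4% and 25.04%. For Col1a2 it held 4.65% and 5.15%, and for Col16a1, at a level near that of Col3a1, 8.91% and 10.7%. The identity of these top cells was not tested.

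Ratios between partner chains put this on a scale free of the total, and compare the same pair of genes across classes. Whether a gene is captured equally in each class was not tested. In fibroblasts there were 0.844 Col1a1 UMIs for each Col1a2 UMI in the control library (counting interval 0.806 to 0.883) and 0.820 (0.787 to 0.855) in the other. In tumour cells the ratio was 0.0437 (0.0419 to 0.0456) and 0.0484 (0.0466 to 0.0503). As background, type I collagen usually holds more of the Col1a1 chain than of the Col1a2 chain. Tumour cells thus carried Col1a2 RNA with little Col1a1 RNA in both libraries, and the intervals of the classes lay far apart. The tumour-cell Col1a1 level of 15.7 and 20.5 CPM stood above the 1.99 and 2.98 CPM of T cells. Of these tumour-cell UMIs 18.2% and 20.9% lay in the top 1% of cells, so the level is not that of a typical tumour cell.

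The chains of types V and VI showed the same kind of gap. Col5a2 UMIs per Col5a1 UMI were 2.32 and 2.11 in fibroblasts, and 0.0649 and 0.0987 in tumour cells. Col6a2 per Col6a1 was 0.645 and 0.689 in fibroblasts, and 0.0817 and 0.0343 in tumour cells. Col6a3 per Col6a1 was 1.14 and 1.24 in fibroblasts, and 0.0356 and 0.0337 in tumour cells. Each of these proteins needs its partner chains in the usual form. In tumour cells Col5a1 and Col6a1 stood well above T cells. Their partners stood at 1.17 and 1.26 CPM (Col5a2), 1.35 and 0.490 (Col6a2) and 0.589 and 0.483 (Col6a3). T cells held these at 0.664 and 2.23, 0.664 and 0.372, and 0 and 1.12 CPM. These rest on 1 and 6, 1 and 1, and 0 and 3 T-cell UMIs, too few to place the partners against free RNA. In control tumour cells 1 cell held 37 of 168 Col5a2 UMIs and 1 held 32 of 85 Col6a3 UMIs. Col8a2, the other type VIII chain, was scarce in both classes, with 37 and 36 UMIs in tumour cells beside 45676 and 48654 of Col8a1.

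Type IV collagen behaved differently. Col4a2 per Col4a1 was 0.606 and 0.492 in tumour cells, 0.540 and 0.473 in fibroblasts and 0.465 and 0.451 in endothelial cells, a narrow range over classes whose Col4a1 level ran from 61.0 to 3876 CPM. These genes lie head to head on chromosome 8, with Col4a1 on the minus strand at 11198423 to 11312826 and Col4a2 on the plus strand at 11312805 to 11449287, so that their annotated starts overlap. The 250 bases upstream of the start of each held 31 and 26 CpG pairs (RefSeq, GRCm38.p6), where the median of all promoters in that table was 6. Col4a5 per Col4a1, in contrast, was 1.488 and 1.496 in tumour cells and at most 0.04 in fibroblasts and 0.00252 in endothelial cells.

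**Figure D3:**
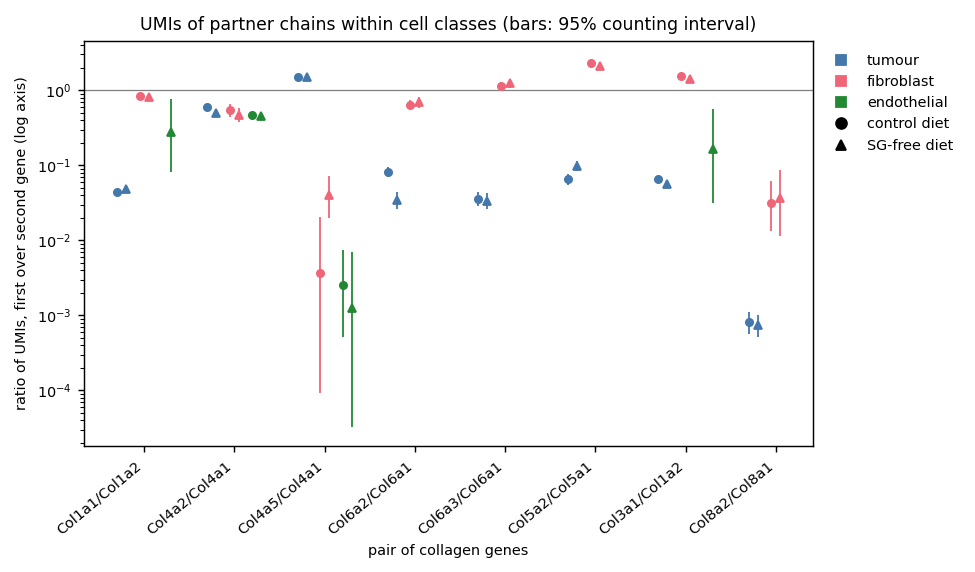
UMI ratio of 8 chain pairs (log axis) in tumour, fibroblast and endothelial cells, circles for the control and triangles for the serine/glycine-free library, bars the 95% counting interval. Col4a2 over Col4a1 lies between 0.451 and 0.606 in every class shown, whereas Col1a1 over Col1a2 is at 0.820 and 0.844 in fibroblasts and below 0.0503 in tumour cells.

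The collagen RNA of endothelial cells was almost all of basement membrane chains, although tumour cells, being many more, held most of the Col4a1 UMIs (80.7% and 76.0%, beside 9.81% and 7.41% in endothelial cells). Of 32 members tested against tumour cells, 5 were at least 2-fold higher in both libraries (11.2% of all genes were) and 21 at least 2-fold lower (34.6% of all genes were). The 5 were Col4a1 at 3876 and 3098 CPM, Col4a2 at 1801 and 1395, Col18a1 at 449 and 236, Col15a1 at 289 and 200, and Col28a1 on few UMIs. The first 4 were not particular to endothelial cells. Mural cells, 8 in each library, held Col4a1 at 3128 and 3060 CPM and Col4a2 at 1402 and 1530. They held Col18a1 at 949 and 289 CPM and Col15a1 at 561 and 82.7, the last on 26 and 2 UMIs. Col4a1 made up 59.5% and 60.2% of the class's collagen UMIs, and the first 3 chains 93.97% and 91.8%. Of the 21 lower members, 16 had a tumour level that 3 counts in the small endothelial class could not resolve. The remaining 5 were Col1a2, Col8a1, Col4a5, Col5a1 and Col6a1. Col1a2 gave 14 and 18 UMIs here, 45.5 and 70.8 CPM, which is nearer to the T-cell level of 17.3 and 30.2 than to any stromal level.

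Set against fibroblasts, endothelial cells were at least 2-fold higher in 3 of 22 members in both libraries, Col4a1, Col4a2 and Col18a1, and at least 2-fold lower in 18. Over all genes tested 10.9% were higher and 12.4% lower. Col15a1 was the 1 member on neither side.

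Monocytes and macrophages, whose collagen total was near that of T cells, held 2 members above that level. Of 14 members tested against T cells, Col14a1 and Col6a6 were at least 2-fold higher in both libraries and 0 were lower, where 15.6% of all genes were higher and 17.9% lower. Col14a1 stood at 29.0 CPM (173 UMIs) and 17.1 CPM (89 UMIs), and in T cells at 1.33 CPM (2 UMIs) and 0. It gave a UMI in 12.4% and 5.61% of the cells, against 0.407% and 0% of T cells. At 0 of 1156 T cells, 3 counts would allow 1.12 CPM. Col6a6, a chain of type VI collagen, gave 19 and 18 UMIs, 3.19 and 3.46 CPM, and none in T cells. Fibroblasts held far more Col14a1, at 314 and 376 CPM, and 39.8% and 47.2% of its UMIs beside 39.1% and 22.8% in monocytes and macrophages. In a clustering made without collagen genes the leukocyte cluster led by C1qa, C1qb and Apoe held 173 and 90 UMIs of Col14a1 and 19 and 18 of Col6a6. Another leukocyte cluster held 4 and 1 of Col14a1, and 3 of Col6a6 on the serine/glycine-free diet, and 1 more held 2 of Col14a1 on the control diet. Against tumour cells the same 2 members were at least 2-fold higher (2 of 33 tested, where 17.7% of all genes were) and 19 were at least 2-fold lower (25.7% of all genes).

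Within the tumour cells 7 states were set apart, each from a panel of 5 genes that are not collagens. Each took at most the 10% of a library's tumour cells that were highest in its panel. A state is a range of a score and not a cell type, and a cell can be in more than 1. The matrix-like state, ranked by Cp, Aspn, Ogn, C1s1 and Dio2, had the most members called higher of the 7 states. Of 32 members tested in tumour cells, 16 were at least 1.5-fold higher there than in the other tumour cells in both libraries and 1 was lower, where 13.2% of all genes were higher and 8.67% lower. Its collagen total was 1458 and 1597 CPM, against 992 and 1069 in the other tumour cells. In the neural-gene state, ranked by Dlgap2 and other genes, the total was higher too, at 1359 and 1331 CPM against 991 and 1067. In the serine/glycine-free library the neural-gene state held 1127 cells where the others held 1278, since no more had 2 of its panel genes.

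Col6a1 had the largest log2 ratio of the abundant members in the matrix-like state. It was 1.83 (1.69 to 1.97) in the control and 1.93 (1.76 to 2.10) in the serine/glycine-free library, from 49.8 against 13.998 CPM and 47.2 against 12.4. Col3a1 stood at 68.5 against 20.3 and 74.8 against 20.5 CPM. The basement membrane chains were higher together: Col4a5 at 188 against 94.5 and 221 against 83.5 CPM, Col4a1 at 129 against 63.3 and 149 against 55.7, and Col4a2 at 73.9 against 38.7 and 76.4 against 27.3. Col1a2 was raised by less, with log2 ratios of 0.56 and 0.56. Col8a1 went the other way, with -0.27 and -0.47. The pair of chains that led the tumour cells as a whole was therefore not what marked this state.

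The same cells held more fibroblast marker RNA. The 12 fibroblast markers summed to 242 and 534 CPM in the state and to 39.4 and 88.2 in the other tumour cells, most of it Dcn, which stood at 177 and 442. Without Dcn they summed to 65.0 and 91.7 against 14.4 and 15.7. Lum stood at 0.679 and 1.90 CPM against 0.246 and 0.0559. Xist, which is high in host cells here (334 and 252 CPM in fibroblasts), stood at 1.07 and 3.79 against 0.59 and 1.14 CPM. The state's cells were shallower, with medians of 8759 and 4951.5 UMIs against 13481 and 9708. The part of these differences in the collagen levels was not tested. Col1a1, at 6243 and 8520 CPM in fibroblasts, had log2 ratios of 0.71 and -0.13 in the state. The ratio of Col1a1 to Col1a2 there was 0.0479 and 0.0309, beside 0.0437 and 0.0484 in all tumour cells.

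**Figure D4:**
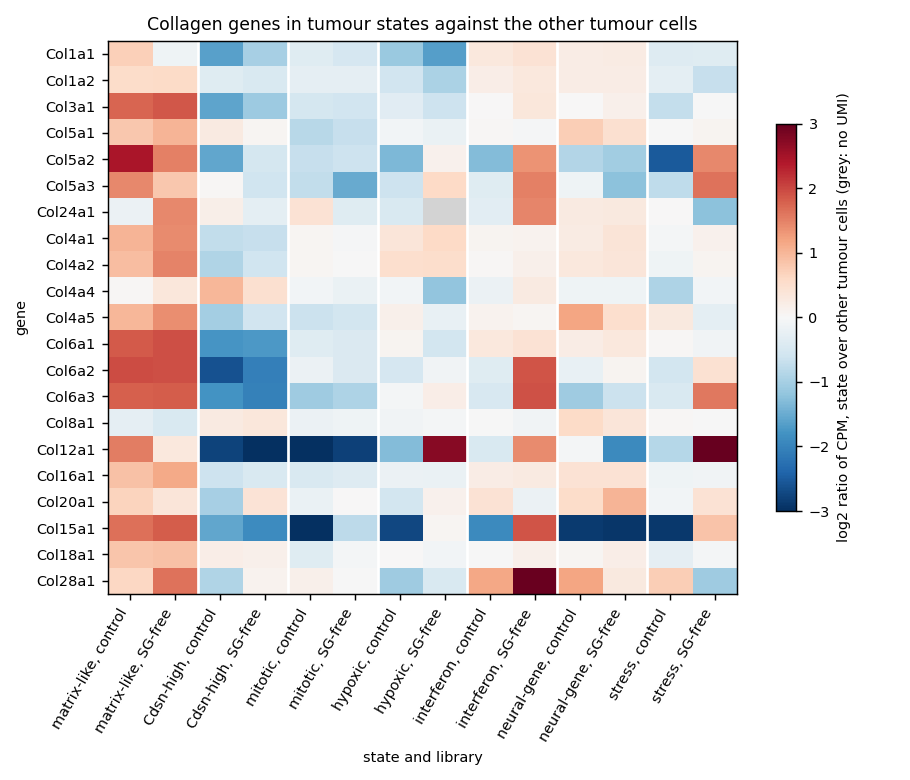
Log2 ratio of each of 7 tumour states over the other tumour cells (colour), for the 21 members with at least 100 UMIs in tumour cells, control and serine/glycine-free library side by side. The matrix-like columns are raised for Col6a1, Col3a1, Col4a1, Col4a2 and Col4a5 and lowered for Col8a1, and the Cdsn-high columns show lower Col6a1, Col1a1 and Col3a1.

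Cells highest in Cdsn, Tenm4, Car6, D5Ertd615e and Angptl6 (the Cdsn-high state) had lower collagens. There 0 members were at least 1.5-fold higher (4.24% of all genes were) and 15 were lower (10.3% of all genes). Col6a1 stood at 5.26 against 18.0 CPM in the control and 4.69 against 15.6 in the serine/glycine-free library. Col1a1 stood at 5.51 against 17.0 and 10.9 against 21.8, and Col3a1 at 8.63 against 25.6 and 11.7 against 25.1. Col8a1 was again opposite to these, with log2 ratios of 0.27 and 0.35. Fibroblast marker RNA was lower as well, 22.9 and 56.7 CPM against 57.9 and 120, and its part was not tested.

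Hypoxic cells, ranked by Ndrg1, Bnip3, Ankrd37, Ddit4 and Pdk1, had lower type I chains and higher Col4a1 and Col4a2, but not the whole of either group. Col1a1 stood at 7.61 against 16.5 CPM and 6.93 against 21.7, and Col1a2 at 250 against 370 and 228 against 441. Col4a1 stood at 85.9 against 66.3 and 88.8 against 58.4 CPM, and Col4a2 at 56.2 against 39.8 and 41.5 against 29.0. Col4a5, the type IV chain with most UMIs, had log2 ratios of 0.16 and -0.23, and fibrillar Col5a1 had -0.08 and -0.19 with intervals that include 0. In this state 1 member was at least 1.5-fold higher in both libraries (3.59% of all genes) and 4 lower (11% of all genes). Of these Col1a1 was the 1 with over 10 CPM, since Col1a2 and the type IV chains did not pass 1.5-fold in both libraries.

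The other states gave few calls among the abundant chains. Mitotic cells had 0 higher members (5.24% of all genes) and 9 lower (9.44%), among them Col5a1 at 10.7 against 19.1 and 8.39 against 13.5 CPM, while Col4a1 and Col4a2 stayed within 0.07 of equal on the log2 scale. Cells ranked by Dlgap2, Sorcs2, Gria1, Gpr39 and Aox1, a panel rich in neural genes, had 1 higher (4.27%) and 4 lower (2.62%), all on low counts. Col4a5 stood there at 204 against 90.5 CPM in the control library but at 123 against 87.0 in the other, with log2 ratios of 1.17 (1.11 to 1.23) and 0.50 (0.43 to 0.57) whose intervals lie apart. Interferon-responding cells had 4 higher (4.15%) and 1 lower (2.9%), none above 1 CPM over all tumour cells. The stress state, ranked by Gadd45b and Cxcl1 among others, had 0 higher (3.05%) and 0 lower (6.55%).

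Tumour clusters, from a clustering of all cells made without collagen genes, were read beside the states. They include cells outside the tumour gate. Among 11 tumour clusters, the one led by Cp, Ogn and Aspn held the highest Col4a5 (214 and 216 CPM), Col4a1 (142 and 129), Col3a1 (74.3 and 63.7), and the highest Col6a1 (59.7 and 43.9). The cluster led by Cxcl1, Cryab and Gadd45b, which also held Ndrg1 and Bnip3 among its leading genes, was lowest in Col1a2 (156 and 191 CPM) and in Col1a1. The cluster led by Tenm4, which shares genes with the Cdsn-high panel, did not show the low levels of that state: in the control library Col3a1 stood there at 28.4 CPM, Col1a1 at 15.7, Col6a1 at 16.4 and Col4a1 at 76.9, beside 23.7, 15.7, 16.6 and 68.0 in all tumour cells. In the serine/glycine-free library these stood at 20.4, 21.03, 11.3 and 55.1 CPM, beside 23.6, 20.5, 14.3 and 61.0. The cluster led by Cdsn and Car6, with Angptl6 among its leading genes, did show lower levels of these chains. Col3a1 stood there at 15.9 and 11.3 CPM, Col1a1 at 12.6 and 16.7, Col6a1 at 10.5 and 8.01 and Col4a1 at 48.9 and 42.1. Col8a1, higher in the Cdsn-high state, was not higher in this cluster, at 270 and 327 CPM beside 317 and 367 in all tumour cells. Col1a2 reached 518 and 619 CPM at most, in different clusters in the 2 libraries. Col8a1 ran from 138 and 187 CPM in the cluster led by Fdps and Gins2 to 392 and 565 in the cluster led by Tenm4.

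By diet, the abundant tumour-cell collagens differed by less than 1.5-fold. Of 32 members tested in tumour cells, 4 were at least 1.5-fold higher in the serine/glycine-free library (8.01% of all genes were) and 4 at least 1.5-fold lower (6.47% of all genes). The median log2 ratio of the members was -0.03, with 15 above 0 and 17 below, and that of all genes tested was 0.03. All 8 called members stood at or below 1.35 CPM. The higher ones were Col9a3, Col12a1, Col14a1 and Col28a1 and the lower ones Col6a2, Col6a5, Col7a1 and Col10a1.

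The chains that carry the tumour cells' collagen fell into 2 directions. Col1a2 was 0.24 higher on the log2 scale in the serine/glycine-free library (0.22 to 0.25), Col8a1 0.21 (0.19 to 0.23) and Col1a1 0.38 (0.30 to 0.46). Col18a1 was lower, with a log2 ratio of -0.55 (-0.63 to -0.48), as were Col5a1 at -0.49 (-0.58 to -0.40) and Col4a2 at -0.46 (-0.52 to -0.40). Col4a1, Col4a5 and Col6a1 had small ratios of -0.16, -0.15 and -0.21. Col3a1 and Col16a1 had ratios of -0.01 and -0.05. The counting intervals of Col3a1 and Col16a1 include 0 and those of the other 9 chains do not. All 11 ratios stay within 1.5-fold, and with 1 library a diet the spread between animals is unknown.

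The libraries also differed in the sizes of their tumour clusters. The cluster led by Cp, Ogn and Aspn had 1046 control and 2512 serine/glycine-free cells, and the cluster led by Tenm4 had 2134 and 944. Over both libraries 2879 of 3558 and 3057 of 3078 of these cells passed the tumour gate, and most of the others passed no gate. Within the 11 clusters the ratio of Col1a2 was above 0 in 11, that of Col8a1 in 11 and that of Col1a1 in 8. The ratios of Col18a1, Col5a1 and Col4a2 were below 0 in 11 of 11 clusters, and that of Col6a1 in 10. Within the 7 states Col1a2 was above 0 in 5, the exceptions being the hypoxic state at -0.13 and the stress state at -0.12. Col4a5 was below 0 in 7 clusters and above in 4, so its small difference did not hold in each.

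**Figure D5:**
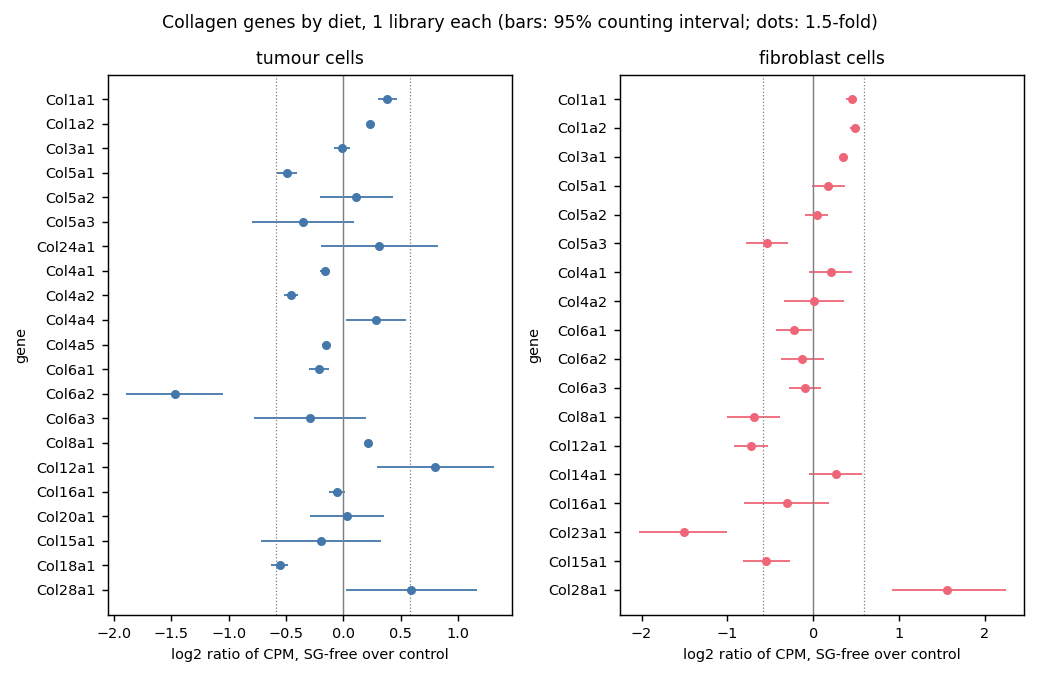
Log2 ratio of serine/glycine-free over control for members with at least 100 UMIs in the class, tumour cells and fibroblasts in separate panels; bars are the 95% counting interval and dotted lines mark 1.5-fold. In tumour cells Col1a2, Col8a1 and Col1a1 lie just right of 0 and Col4a2, Col5a1 and Col18a1 left of it, all inside the dotted lines, while Col6a2 at -1.46 lies outside.

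Col6a2 had the most UMIs of the called members. It went from 195 to 65 UMIs in tumour cells (1.35 and 0.49 CPM), a log2 ratio of -1.46 (-1.89 to -1.05). T cells held Col6a2 at 0.664 and 0.372 CPM, on 1 UMI in each library. The intervals of its tumour over T-cell ratios include 0 in both libraries. Tumour cells held 29.9% and 14.3% of its UMIs. Col10a1, a chain known from growth-plate cartilage, went from 39 to 4 UMIs, but 43.6% of its control UMIs came from 1 cell. Col12a1 gave 55 and 88 UMIs, with 25% of the latter in 1 cell, and its level of 0.664 CPM was below the 2.23 CPM of serine/glycine-free T cells.

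The fibroblast ratios rest on 63 and 76 cells. Of 22 members tested, 2 were at least 1.5-fold higher in the serine/glycine-free library (13.5% of all genes) and 4 at least 1.5-fold lower (10.9% of all genes). The median log2 ratio was -0.05, against 0.02 for all genes tested. The 3 leading fibrillar chains were higher but within 1.5-fold: Col1a2 by 0.49 (0.43 to 0.55), Col1a1 by 0.45 (0.38 to 0.51) and Col3a1 by 0.35 (0.30 to 0.40) on the log2 scale. The type VI chains had ratios of -0.22, -0.13 and -0.10, and Col5a2 one of 0.04.

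The called fibroblast members had fewer UMIs. Col12a1 went from 593 to 313 UMIs, a log2 ratio of -0.73 (-0.93 to -0.53). Col23a1, a transmembrane collagen, went from 140 to 43, a ratio of -1.51 (-2.04 to -1.005). Col8a1 went from 255 to 138, a ratio of -0.69 (-0.999 to -0.385), but 60 of the 255 came from 1 cell and without the top cell of each library the ratio was -0.54. Col11a1 went from 46 to 14, with 28 of the 46 in 1 cell. The higher ones were Col18a1 with 13 and 35 UMIs and Col28a1 with 28 and 72, with 16 of the 72 in 1 cell. So Col8a1 was higher in serine/glycine-free tumour cells and lower in serine/glycine-free fibroblasts, and Col18a1 the reverse, and the difference between the classes was not tested.

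In endothelial cells 5 members were tested by diet, of which 1 was higher (15.6% of all genes) and 1 lower (12.5% of all genes). Col18a1 went from 449 to 236 CPM (138 and 60 UMIs), a log2 ratio of -0.93 (-1.39 to -0.48). Col4a1, Col4a2 and Col15a1 had ratios of -0.32, -0.37 and -0.53, all within 1.5-fold. The higher one was Col1a2, on 14 and 18 UMIs, with an interval of -0.45 to 1.76 that includes 0. In monocytes and macrophages 8 of 12 members were higher (5.95% of all genes) and Col14a1 was lower (6.06% of all genes), with a ratio of -0.76 (-1.15 to -0.38). Of the 8, Col1a2 stood at 14.1 and 36.6 CPM and Col8a1 at 4.86 and 11.9, beside 17.3 and 30.2, and 5.31 and 15.3, in T cells. These levels were near the T-cell levels of the same library, which were also higher on the serine/glycine-free diet.

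The diet ratio was set beside the glycine codons of each gene. The 32 members tested in tumour cells had a median of 24.4% glycine codons and a median log2 ratio of -0.03, with 4 higher and 4 lower. The 135 other genes among the highest 1% by glycine codons had a median of 15.9% and a median ratio of 0.12, with 14 higher and 4 lower. All 13418 genes with a coding model that are not members, the 135 included, at a median of 6.24%, had a median ratio of 0.04. Of these 967 were higher and 704 lower. Across the 32 members the Spearman correlation of the share of glycine codons with the ratio was 0.18, a description over genes that share their libraries. Codons count what the protein needs, and these data measure RNA only.

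The genes around the collagens were read against the same shares of all genes, 8.01% higher and 6.47% lower in tumour cells. Of 29 processing genes tested in tumour cells, 3 were at least 1.5-fold higher and 4 lower, with a median log2 ratio of 0.02. Lox, which cross-links fibrils, was higher at 0.277 and 0.603 CPM (1.12, 0.56 to 1.71). T cells held it at 0 and 2.98 CPM, on 0 and 8 UMIs, so its serine/glycine-free tumour level was below the T-cell level. Since T cells were shallower, this does not place it against the free RNA of tumour cells. Adamts14, which trims the end of procollagen, was lower at 8.37 and 4.41 (-0.92, -1.07 to -0.78). T cells held more of it, at 72.4 and 63.7 CPM. The prolyl hydroxylase P4ha1 (101 and 123 CPM), the lysyl hydroxylase Plod2 (21.5 and 28.2) and the collagen chaperone Serpinh1 (168 and 163) were within 1.5-fold. In fibroblasts, where 13.5% of all genes were higher and 10.9% lower, 2 of 24 were higher and 1 was lower, and Lox was higher there too, with 419 and 600 UMIs (0.71, 0.53 to 0.90). Among collagen receptors in tumour cells 1 of 9 was higher and 1 lower, and the main ones, Itgb1 at 278 and 285 CPM and Ddr2 at 126 and 112, stayed within 1.5-fold. Of 4 receptors tested in fibroblasts 0 passed 1.5-fold.

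Of 13 basement membrane partners in tumour cells, 0 were higher and 3 lower (8.01% and 6.47% of all genes), with a median log2 ratio of -0.23 against 0.03 for all genes. Lama2, a laminin chain that anchors cells to type IV networks, stood at 27.0 and 6.20 CPM (-2.12, -2.23 to -2.01). Nid1, which bridges laminin to type IV collagen, stood at 8.54 and 2.16 (-1.98, -2.17 to -1.79). The third was Lamb3, on 25 and 13 UMIs. Lama2 is a leading gene of the cluster led by Tenm4, which had 2134 control and 944 serine/glycine-free cells. The part of these cell numbers in the Lama2 ratio was not tested. In fibroblasts Nid1 was at 246 and 221 UMIs, within 1.5-fold, and over the 10 partners tested there 1 was higher (Nid2, with 9 and 31 UMIs) and 2 lower (Lamb1 and Agrn), beside 13.5% and 10.9% of all genes. In endothelial cells 1 of 8 was higher and 1 lower, beside 15.6% and 12.5% of all genes.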

How the data were processed

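Single-cell RNA sequencing of 2 tumour libraries was analysed, 1 for each diet. The authors deposited raw UMI counts per gene and barcode, made with a 10x Genomics 3′ protocol per the labels. The Cell Ranger version was 7.0.1 per the file headers and 2.2.2, with the mm10 genome, per the submitters' processing notes. How intronic reads were handled is not stated there. The labels' protocol text names a human heart tissue, which disagrees with the mouse and tumour fields.

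Cells with at least 500 UMIs, 300 genes and at most 20% mitochondrial UMIs were kept (14159 and 20312), and Scrublet in scanpy 1.11.5 removed 571 (4.03%) and 1206 (5.94%) as doublets. Gates were at least 800 CPM and 3 UMIs of Hmga2 plus Rhox5 for tumour cells, 3 of 8 pan-leukocyte markers for leukocytes, 5 of 12 fibroblast, 4 of 10 endothelial and 3 of 8 mural markers. T cells needed 2 T-cell markers and macrophages 3 of their own. These minimums were set after the marker distributions, not the collagen levels, had been seen, and 1208 (8.89%) and 2269 (11.9%) cells lay between 400 and 1200 CPM of the tumour gate. States were the highest 10% of tumour cells by panel CPM, or fewer where fewer had at least 2 panel genes detected.

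Each gene's UMIs in a class were added up and scaled to CPM. Ratios carry exact 95% conditional (Clopper-Pearson) intervals and levels exact Poisson intervals. UMIs of 1 cell are not independent, so all intervals cover counting error only and no test was made. A gene was counted with at least 20 UMIs over the groups compared and called past 1.5-fold (diet, states) or 2-fold (classes). The comparison with T cells, the floor of 3 counts and the count of glycine codons were added after the first levels were seen. Values are written out for members with at least 100 UMIs in a class, and smaller ones only where they were called or are a partner chain. Coding models and stretches are from GENCODE M21, and promoter windows were found for 31 of the 37 members in the RefSeq table. The ratio script was tested on simulated counts. Python 3.11.15, numpy 2.4.6, scipy 1.17.1, pandas 2.3.3, anndata 0.12.19, scikit-learn 1.9.0, igraph 0.11.9 and matplotlib 3.10.9 were used. The members and the gene lists were chosen with earlier results of these data known.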

Additional observations from a re-analysis of the deposited data

Results flagged for a closer look

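Col12a1, a FACIT chain that coats fibrils, had diet ratios of opposite sign in tumour cells and fibroblasts. The log2 ratio of serine/glycine-free over control was 0.80 in tumour cells (55 and 88 UMIs) and -0.73 in fibroblasts (593 and 313 UMIs), each past 1.5-fold. The difference between the classes was not tested, since there is 1 library for each diet. The tumour-cell level was 0.381 and 0.664 CPM beside 0 and 2.23 CPM in T cells, and 25% of the serine/glycine-free tumour UMIs lay in 1 cell. Without the top cell of each library the tumour ratio was 0.55, and with collagen-free clusters it was -0.35, the sign of the fibroblasts. Tumour cells held 5.6% and 11.9% of the Col12a1 UMIs, fewer than the cells that passed more than 1 gate (19.8% and 22.4%).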

How the results depend on the processing

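No paired analysis was possible because each diet has 1 library and the labels carry no replicate numbers. Counts of calls were recomputed under other scalings, filters, gates, minimums and pseudocounts, as were shares of cells and of UMIs: 114 of these recomputed values stayed within 1.5 times (counts) or the counting interval (shares), and 47 did not. The 4 members higher by diet in tumour cells became 2 with CPM free of mitochondrial and ribosomal-protein genes, with median-ratio scaling, with doublets kept, with stricter gates, at a minimum of 100 UMIs and without the top cell, 1 with collagen-free clusters, and 0 with a pseudocount of 1 or 10 CPM. The 4 lower ones became 1 with a pseudocount of 1, at 100 UMIs and as a mean over states, and 0 with a pseudocount of 10. In fibroblasts the 2 higher became 1 at 100 UMIs. In endothelial cells the 1 higher became 0 with a pseudocount of 10, at 100 UMIs and without the top cell, and 4 with no minimum beyond 1 UMI in each library, and the 1 lower became 15 with clusters and 3 with no such minimum. Of the class comparisons, the 7 members lower in fibroblasts than in tumour cells became 1 with either pseudocount and at 100 UMIs. The 5 higher in endothelial cells became 14 with clusters, and the 21 lower became 13 with clusters, 8 and 4 with pseudocounts of 1 and 10, and 12 at 100 UMIs. The cluster taken as endothelial held the pericyte gene Rgs5 among its leading genes. Of the states, the 9 lower in mitotic cells became 5 with clusters and with the top 5%, 1 with a pseudocount of 1 and 0 with 10. The 16 higher in the matrix-like state became 7 with a pseudocount of 10, and the 15 lower in Cdsn-high cells became 4 and 3 with pseudocounts of 1 and 10, 9 at 100 UMIs and 8 with the top 20%. The fibroblast share of collagen UMIs (10.5% and 10.7%) was 8.41% and 7.86% with stricter gates, 9.97% and 9.83% with doublets kept and 15.1% and 17.6% with clusters. Thinned to 2000 UMIs, 47.6% and 53.0% of tumour cells had a Col1a2 UMI and 40.1% and 43.2% a Col8a1 UMI. Direction reversed with clusters for Col12a1 by diet in tumour cells (-0.35) and Col1a2 by diet in endothelial cells (-0.97). For the shifts not shown by the construction of the alternative, the cause was not tested. Another scaling moved the median of all genes by at most 0.04 on the log2 scale. The 8 tumour-cell diet calls rest on 195 UMIs or fewer in a library, and the fibroblast and endothelial classes on 36 to 76 cells, which limits what their ratios can show.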
